A study of Mus musculus with 19 samples.

Results

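The 10 genes described here are epithelial genes in 2 roles: 7 keratins, which build the intermediate filaments of epithelial cells, and 3 genes of cell-to-cell adhesion. They were taken by name, with earlier results of these data known, as rows of the expected-count table whose Ensembl identifiers carry their mouse symbols. The symbols are Krt8, Krt18, Krt19 and Krt7 (luminal keratins), Krt5, Krt14 and Krt17 (basal keratins), and Cdh1, Epcam and Cldn7 (adhesion). All 10 were found among 26796 genes, and all 10 passed the filter on low counts that kept 15629 genes for testing. The RNA came from 19 whole tumours of Met1 cells in mice, labelled as breast tumours. Met1 is a mouse mammary carcinoma line, derived from a tumour driven by the polyomavirus middle T antigen under the mammary-directed MMTV promoter. Every mouse received extracellular vesicles from neutrophils, and the groups differ in what those neutrophils had been exposed to: the solvent DMSO (9 tumours) or 27-hydroxycholesterol (27HC), a cholesterol metabolite (10 tumours). No group without vesicles is among the samples, so neither group is an untreated baseline. The sources used here do not give the strain and age of the mice, the dose or the implantation site. Titles carry a pair of numbers: the first is 1 in 5 DMSO and 5 27HC tumours and 2 in 4 DMSO and 5 27HC tumours, and its meaning is not given. Tumours are named below by group and both numbers (DMSO 1_5). Nothing states that the tumours came from separate mice, so the p-values measure the spread between these samples.

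Keratins are made in pairs of a type II and a type I chain, which must join before a filament can form. Krt8 (type II) and Krt18 (type I) are the standard pair of simple epithelia, including the luminal cells of the mammary duct, where Krt7 and Krt19 join them. Krt5 and Krt14 are the pair of basal and myoepithelial cells, and Krt17 is a type I chain of basal cells and of epithelium under stress. Cdh1 encodes E-cadherin, the adhesion receptor of adherens junctions; Epcam encodes a surface adhesion protein of epithelial cells; and Cldn7 encodes claudin-7, which sits in tight junctions and along the lateral membrane. Loss of these transcripts together with gain of mesenchymal genes is the textbook picture of epithelial-mesenchymal transition.

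The sequence just upstream of a gene is shown for 4 members whose levels the results turn on: Krt18 and Krt8, which are partners at very unequal levels, Krt5, which was at 0 in some tumours, and Epcam, which varied most among the adhesion genes. The sequences come from RefSeq on GRCm38.p6, run 5′ to 3′ on the gene's strand, and end at or, for Krt5, a few bases before the start of the GENCODE M21 gene. Of the 10 members, 7 had an entry in the promoter table, and Krt19, Krt17 and Cdh1 had none. Capitals mark matches to CAGGTG on either strand (an E-box of the kind that Snail and Zeb repressors bind in the E-cadherin promoter) and to the GC box GGGCGG on either strand.
Krt18, chr15:102027966-102028179, plus strand: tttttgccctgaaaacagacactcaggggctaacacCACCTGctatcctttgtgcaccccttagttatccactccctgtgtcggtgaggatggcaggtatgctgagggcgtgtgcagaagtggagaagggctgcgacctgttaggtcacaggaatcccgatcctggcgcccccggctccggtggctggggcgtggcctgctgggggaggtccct
Krt8, chr15:102004483-102004592, minus strand: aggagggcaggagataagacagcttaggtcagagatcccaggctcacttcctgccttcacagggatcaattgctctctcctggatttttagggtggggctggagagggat
Krt5, chr15:101712906-101713155, minus strand: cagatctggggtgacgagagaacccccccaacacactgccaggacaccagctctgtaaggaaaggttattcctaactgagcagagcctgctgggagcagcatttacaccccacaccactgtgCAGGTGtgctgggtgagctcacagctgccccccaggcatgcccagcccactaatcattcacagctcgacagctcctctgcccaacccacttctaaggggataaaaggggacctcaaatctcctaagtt
Epcam, chr17:87635729-87635978, plus strand: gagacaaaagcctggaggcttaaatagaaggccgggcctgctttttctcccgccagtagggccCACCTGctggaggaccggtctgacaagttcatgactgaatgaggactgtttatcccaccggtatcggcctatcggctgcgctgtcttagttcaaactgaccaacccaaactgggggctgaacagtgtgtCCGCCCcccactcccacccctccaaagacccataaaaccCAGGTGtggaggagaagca
The Epcam window holds 2 E-boxes and 1 GC box, the Krt5 and Krt18 windows hold 1 E-box each, and the 110 bases of Krt8 hold neither motif. Among 32536 RefSeq promoters, 17.3% hold the E-box in 250 bases, 15.3% in 214 and 8.02% in 110, and 33.0% hold the GC box in 250 bases. TATAAA and the AP-1 site TGANTCA were searched on both strands as well and had no match in these windows. A match is a match of letters only.

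One keratin stood far above the others. Krt18 (ENSMUSG00000023043; GRCm38 chromosome 15, 102028180 to 102032027, plus strand) had 86.5 ± 30.1 CPM (expected counts scaled to a common library size; SD, n = 9) in DMSO tumours and 84.3 ± 27.1 CPM (SD, n = 10) in 27HC tumours. In DMSO tumours it ran from 38.8 through a median of 76.0 to 121 CPM, and in 27HC tumours from 36.0 through 89.5 to 132 CPM. The groups covered almost the same span. Per length (CPM per kb of the principal transcript), Krt18 had a level of 25.0 to 91.9 with a median of 60.4, and the highest level of any other member in any tumour was 11.3, for Krt19 in 27HC 2_1. Krt18 made up 72.0% to 98.9% of the summed level per length of the 7 keratins, with a median of 87.2%.

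**Figure D1:**
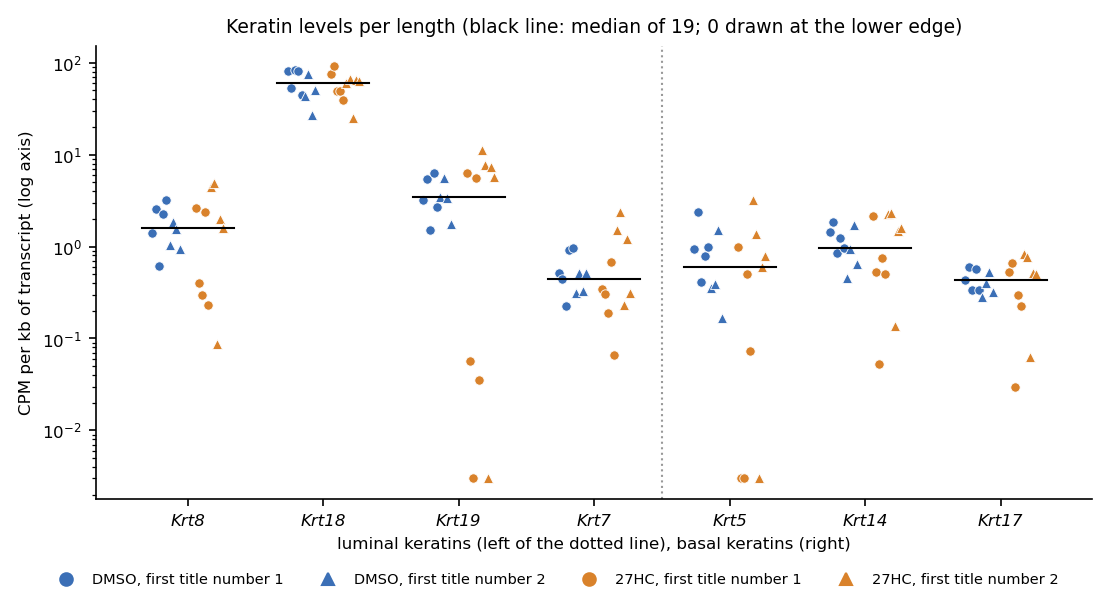
Level of the 7 keratins in CPM per kb of transcript (log axis), with 1 point a tumour, DMSO in blue and 27HC in orange, circles for first title number 1 and triangles for 2; black lines are medians over 19 tumours and values of 0 are drawn at the lower edge. Krt18 lies between 25.0 and 91.9 in every tumour, above every value of the other keratins, while Krt19 and Krt5 reach 0 in some 27HC tumours.

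Krt8 (ENSMUSG00000049382; chromosome 15, 101996698 to 102004482, minus strand), the partner of Krt18, was far lower. Per length, its level was 0.0876 to 4.87 with a median of 1.59. The ratio of Krt18 to Krt8 per length was 13.5 in 27HC 2_2, 40.4 at the median and 286 in 27HC 2_3. In DMSO tumours the ratio ran from 14.1 to 137 with a median of 40.6, and in 27HC tumours the median was 36.4. Of the 31-base words of Krt8, 36.05% also occur in other annotated genes, mostly the pseudogene Krt8-ps, which is no row of the table, and 11.4% of those of Krt18 do. The sources used here do not say how reads shared with pseudogenes were assigned, so the size of the ratio carries that uncertainty.

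The remaining luminal keratins were far below Krt18 as well. Krt19 (ENSMUSG00000020911; chromosome 11, 100140810 to 100148665, minus strand) had 5.84 ± 2.69 CPM (SD, n = 9) in DMSO and 6.96 ± 6.47 CPM (SD, n = 10) in 27HC tumours. Krt7 (ENSMUSG00000023039; chromosome 15, 101411043 to 101430313, plus strand) had 2.16 ± 1.06 and 2.97 ± 3.08 CPM, and Krt8 had 3.36 ± 1.63 and 3.71 ± 3.39 CPM, in the same order of groups. Krt7 overlaps the antisense gene Gm671, and whether the counting used strand is not given, so reads of the pair may be mixed. Per length the medians over 19 tumours were 3.49 for Krt19, 1.59 for Krt8 and 0.44 for Krt7.

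The basal keratins were measured at low levels. Krt5 (ENSMUSG00000061527; chromosome 15, 101707070 to 101712898, minus strand) had 1.94 ± 1.55 CPM (SD, n = 9) in DMSO and 1.65 ± 2.16 CPM (SD, n = 10) in 27HC tumours. Krt14 (ENSMUSG00000045545; chromosome 11, 100203162 to 100207548, minus strand) had 1.91 ± 0.81 and 2.01 ± 1.52 CPM. Krt17 (ENSMUSG00000035557; chromosome 11, 100256217 to 100261029, minus strand) had 0.65 ± 0.18 and 0.69 ± 0.43 CPM. Per length the medians were 0.98 for Krt14, 0.61 for Krt5 and 0.43 for Krt17. Of the 31-base words of Krt14, 28.2% also occur in other genes, mainly Krt16 and Krt17, and 15.8% of those of Krt17 do, mainly Krt14, so these type I chains are partly inseparable.

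Among the adhesion genes, Cdh1 had the smallest coefficient of variation over all 19 tumours (39.5%) and in 27HC tumours (37.5%), and Cldn7 had it in DMSO tumours (31.3%). Cdh1 (ENSMUSG00000000303; chromosome 8, 106603351 to 106670246, plus strand) ran from 2.82 through a median of 8.86 to 12.1 CPM in DMSO tumours and from 3.35 through 6.55 to 10.6 CPM in 27HC tumours. Epcam (ENSMUSG00000045394; chromosome 17, 87635979 to 87651129, plus strand) ran from 0.262 in DMSO 1_3 through a median of 2.33 to 13.2 CPM in DMSO 1_5, and from 0.550 through 1.93 to 7.67 CPM (27HC 2_2) in 27HC tumours. The highest Epcam value of each group stood apart from the rest of that group. Cldn7 (ENSMUSG00000018569; chromosome 11, 69964779 to 69967885, plus strand) was the lowest member per length, with 0.50 ± 0.16 CPM (SD, n = 9) in DMSO and 0.55 ± 0.35 CPM (SD, n = 10) in 27HC tumours. Per length the medians were 1.58 for Cdh1, 1.05 for Epcam and 0.34 for Cldn7.

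Ordered by median level per length, the members ran Krt18, Krt19, Krt8, Cdh1, Epcam, Krt14, Krt5, Krt7, Krt17 and Cldn7. The step from Krt18 to Krt19 was the only one between neighbours in which no values overlapped. From Krt19 downwards each member overlapped the next across the tumours. Luminal exceeded basal keratins in every tumour when Krt18 was counted: the mean log2 CPM of the 4 luminal minus that of the 3 basal keratins was 2.53 ± 0.63 (SD, n = 9) in DMSO and 2.61 ± 0.68 (SD, n = 10) in 27HC tumours, with a lowest value of 1.23. Without Krt18, the summed luminal level per length was 2.74 times the basal one at the median, and the ratio ran from 0.408 to 5.92. It was under 1 in 27HC 1_5 (0.408) and 27HC 1_2 (0.647) alone.

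**Figure D2:**
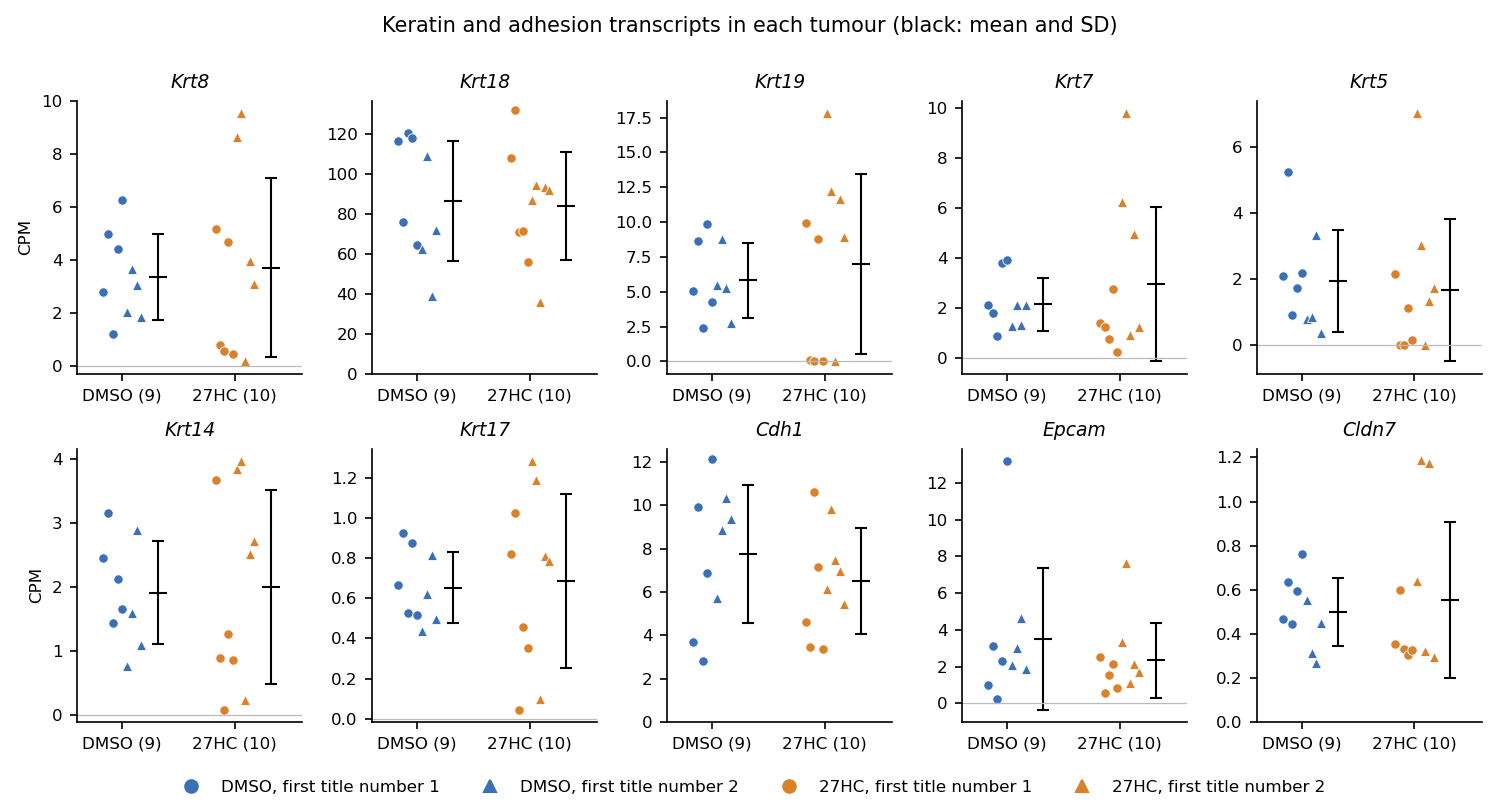
CPM of each of the 10 genes, 1 point a tumour, DMSO (9) in blue and 27HC (10) in orange, circles for first title number 1 and triangles for 2; black bars are the mean and SD of a group. The groups overlap in every panel, 4 27HC tumours lie at or near 0 for Krt19 and Krt5, and Epcam has 1 high tumour in each group (13.2 and 7.67 CPM).

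Before the tumours with missing keratins are described, the libraries that stood apart are given. Totals ran from 28139419 to 41179056 expected counts, and the GC content of the RNA, weighted by counts, from 49.04% to 52.26%. The 5 libraries of lowest GC content were 27HC 1_3, 27HC 2_3, DMSO 2_3, DMSO 1_5 and 27HC 1_5. The summed level of 7 salivary gland markers was 6251 CPM in DMSO 1_5 and 1036 CPM in 27HC 2_2, against at most 12.9 CPM in the others. The summed level of 8 skeletal muscle markers ran from 4.74 to 1257 CPM in DMSO and from 4.20 to 3333 CPM in 27HC tumours. In bulk RNA, fewer cells of a type and less RNA per cell cannot be told apart.

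Krt19 was missing or nearly so in 4 tumours, all of them 27HC. In DMSO tumours with first title number 1 it had 5.02, 8.64, 2.39, 9.87 and 4.26 CPM, and with number 2 it had 5.51, 8.81, 5.30 and 2.75 CPM. In 27HC tumours with number 1 it had 9.97, 0.0899, 0, 8.77 and 0.0556 CPM, and with number 2 it had 17.8, 12.3, 0, 11.7 and 8.94 CPM, both in the order of the second number. The 4 tumours were 27HC 1_2, 1_3, 1_5 and 2_3, with 2.30, 0, 1.75 and 0 expected counts, while the other 15 tumours had 64.6 to 608. A count of 0 allows up to 3 counts, or 0.0713 CPM in 27HC 1_3 and 0.0754 CPM in 27HC 2_3, for counting error only. No tumour lay between 2.30 and 64.6 counts, so Krt19 was either present or at the floor. The other 6 27HC tumours had 8.77 to 17.8 CPM, within and above the DMSO range of 2.39 to 9.87.

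Krt5 was at or near the floor in the same 4 tumours, with 0 expected counts in 27HC 1_2, 1_3 and 2_3 and 5.05 in 27HC 1_5. In the other 15 it had 13.8 to 240 expected counts, up to 7.02 CPM in 27HC 2_1. Krt8 had its 4 lowest values there too, 0.172 to 0.789 CPM against 1.20 to 9.54 CPM elsewhere. Krt14 took its lowest ranks with 1 exception: it was 0.0888 to 0.892 CPM in the 4 tumours, and DMSO 2_1 at 0.771 CPM lay inside that span. Krt7 did likewise, with 0.268 to 1.26 CPM in the 4 tumours and DMSO 1_3 at 0.913 CPM inside that span. Krt17 was low in 27HC 1_3 (0.0462 CPM) and 27HC 2_3 (0.0981 CPM), while 27HC 1_2 had 1.02 CPM, the third highest value of all.

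Krt18, Cdh1 and Cldn7 followed that pattern in part or not at all. Krt18 had 132 CPM in 27HC 1_2, the highest of 19, and 36.0 CPM in 27HC 2_3, the lowest. Cdh1 had 10.6 CPM in 27HC 1_3, the second highest of all, and 3.35 CPM in 27HC 1_5. Cldn7 had 0.321 to 0.331 CPM in 3 of the 4 tumours, below the median of 0.467 CPM in the other 15, and 0.601 CPM in 27HC 1_2. Epcam did share much of the pattern: its 0.550 to 1.52 CPM in the 4 tumours were the 4 lowest values of the 27HC group, whose other 6 tumours had at least 1.73 CPM, but DMSO 1_1 (1.02 CPM) lay inside that span and DMSO 1_3 (0.262 CPM) below it. Tumours at or near the floor for Krt19 and Krt5 still held Krt18 at 36.0 to 132 CPM and Cdh1 at 3.35 to 10.6 CPM.

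The same 4 tumours held the highest skeletal muscle sums of their group, 618 to 3333 CPM against 4.20 to 195 CPM in the other 6 27HC tumours, and 3 of them were among the 5 libraries of lowest GC content. This did not hold in DMSO tumours. DMSO 1_2 and DMSO 1_4 had muscle sums of 1257 and 1147 CPM with 8.64 and 9.87 CPM of Krt19, and DMSO 2_3 and DMSO 1_5 had low GC content with 5.30 and 4.26 CPM. Other marker sums moved with these tumours in part. The summed level of 10 basal and myoepithelial markers other than keratins was 789, 811 and 819 CPM in 27HC 1_3, 1_5 and 2_3, the highest of all, and 366 CPM in 27HC 1_2, against 208 to 711 CPM in the other 15, with no marker at 0. Mme alone gave 233 to 672 CPM of it in the 4 tumours. The sum of 16 mammary luminal and milk markers was lowest in 27HC 1_3 (185 CPM) and 27HC 2_3 (225 CPM), and it was 297 CPM in 27HC 1_5 and 697 CPM in 27HC 1_2, against 264 to 878 CPM in the others, with 2 to 4 markers at 0 in the 4 tumours and 0 to 4 in the others. The part of muscle RNA, GC content and these cell types in the keratin values was not tested.

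**Figure D3:**
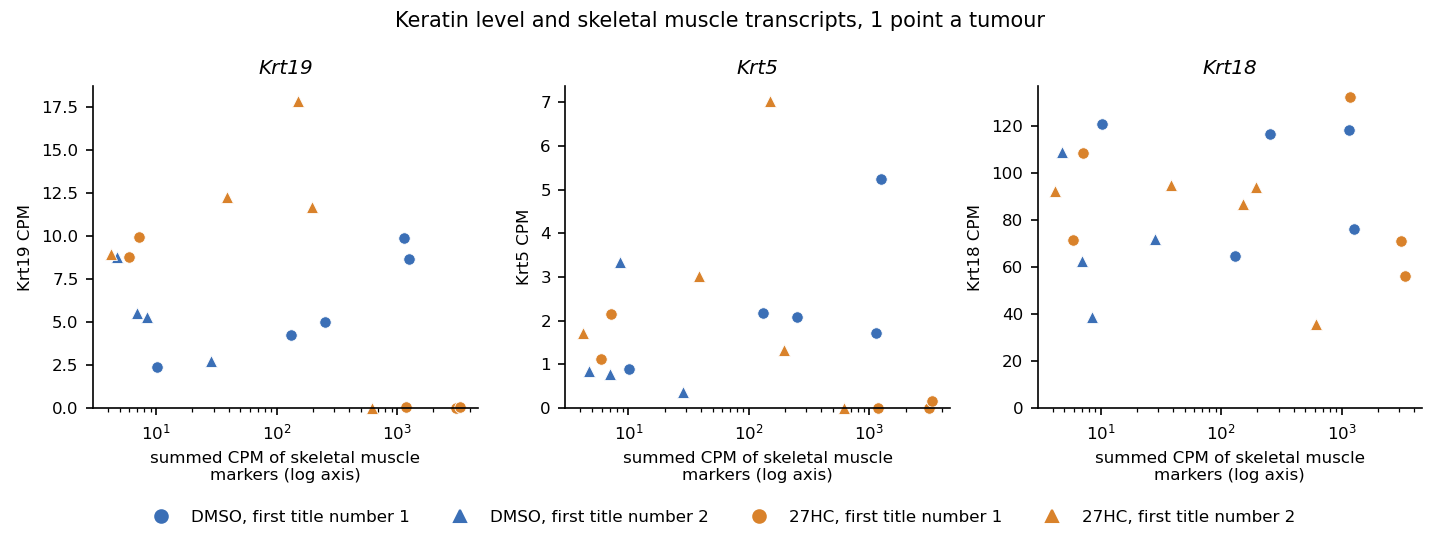
CPM of Krt19, Krt5 and Krt18 (vertical axes) against the summed CPM of 8 skeletal muscle markers (log axis), 1 point a tumour, colours for group and shapes for first title number. The 4 27HC tumours with muscle sums of 618 to 3333 CPM lie at the bottom for Krt19 and Krt5 and are spread over the range for Krt18, while DMSO tumours with sums of 1147 and 1257 CPM keep both keratins.

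No member passed the test of 27HC against DMSO tumours, and every difference was within the spread between tumours. By edgeR's quasi-likelihood test with Benjamini-Hochberg adjustment over 15629 genes, 0 of the 10 passed an adjusted p of 0.05, and percent called among all genes was 0. Of the 10 members, 0 had an unadjusted p under 0.05, against 2.27% of all genes. The smallest unadjusted p of a member was 0.297 (Epcam), and DESeq2 and limma-voom called 0 members as well. The log2 fold change was above 0 in 6 of 10 members, with a median of 0.07, against 53.9% of all genes, whose median was 0.01.

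Among the luminal keratins the log2 fold changes (27HC over DMSO) were 0.14 (SE 0.56) for Krt8, -0.04 (SE 0.23) for Krt18, 0.25 (SE 0.83) for Krt19 and 0.45 (SE 0.51) for Krt7. The basal keratins had -0.23 (SE 0.81) for Krt5, 0.07 (SE 0.49) for Krt14 and 0.07 (SE 0.41) for Krt17. Cdh1 had -0.25 (SE 0.27), Epcam -0.57 (SE 0.53) and Cldn7 0.12 (SE 0.32). Only Krt18 and Cdh1 were measured closely enough for a standard error under 0.3. The direction of Krt19 depended on the scale: its mean CPM was higher in 27HC, while the difference of mean log2 CPM, which weighs the tumours at the floor more, was -1.74 (exact permutation test, two-sided, p = 0.157). On that log scale all 10 differences were below 0, with a median of -0.28 and 0 of 10 at p under 0.05.

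Epcam in DMSO rested on DMSO 1_5, the library with salivary gland transcripts: without it the log2 fold change was -0.015 (SE 0.48). The count of members above 0 went from 6 to 2 without 27HC 2_2 or without 27HC 2_1, with medians of -0.09 in both cases. Without both libraries with salivary transcripts, an alternative chosen after seeing the data, 2 of 10 were above 0 with a median of -0.13. Without the 5 libraries of lowest GC content, an alternative chosen with earlier results of these data known, 9 of 10 were above 0. The median was then 0.51, against -0.002 over all genes. Those 5 include 27HC 1_3, 1_5 and 2_3, which are among the 4 tumours at the Krt19 floor. That fit therefore also leaves out low 27HC values of Krt19 and Krt5. A member was called in none of these fits.

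The spread between tumours was also unequal. The coefficient of variation of CPM was larger in 27HC than in DMSO tumours for 7 of 10 members: 92.9% against 46.1% for Krt19, 91.4% against 48.5% for Krt8, 104% against 48.9% for Krt7 and 63.0% against 27.4% for Krt17, with Krt5, Krt14 and Cldn7 in the same direction. Krt18 (32.1% against 34.9%), Cdh1 (37.5% against 40.9%) and Epcam (86.4% against 109%) had the smaller value in 27HC, but each of these orders rested on single tumours. The DMSO value of Epcam was 58.6% without DMSO 1_5, and its 27HC value was 49.6% without 27HC 2_2. The DMSO value of Krt18 was 28.1% without DMSO 2_3, and that of Cdh1 was 35.9% without DMSO 1_1 and 32.9% without DMSO 1_3. The 27HC coefficients include the 4 tumours at the Krt19 floor, and coefficients without all 4 were not computed. Krt19 had 0 to 0.0899 CPM in the 4 and 8.77 to 17.8 CPM in the other 6 27HC tumours. Krt8 had 0.172 to 0.789 and 3.11 to 9.54 CPM, and Krt17 had 0.0462 to 1.02 and 0.457 to 1.28 CPM, in the same order. The difference in spread was not tested.

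Split by first title number, the members' fold changes had mostly opposite signs. Among tumours with number 1, 0 of 10 members had a log2 fold change above 0, against 51.6% of all genes, with a median of -0.68. Among tumours with number 2, 9 of 10 were above 0, against 50.1% of all genes, with a median of 0.78. Cdh1 was the exception at -0.26 (SE 0.40). By limma-voom, 6 of 10 were above 0 with number 2 (median 0.10) and 0 of 10 with number 1. By edgeR with adjustment over all genes, 0 of 10 members passed in either subset or in the test of the difference, and percent called was 0 each time. All 10 differences between the numbers (2 minus 1) were above 0, against 48.6% of all genes, with a median of 1.496. At an unadjusted p under 0.05 there were 0 members with number 1 (1.38% of all genes), 1 with number 2 (2.44%) and 2 in the difference (1.43%). The members are correlated with each other, so 10 agreeing signs are not 10 independent observations.

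Krt7 had the smallest p of the difference. With number 1 it had 2.13, 1.80, 0.913, 3.79 and 3.93 CPM in DMSO and 1.41, 1.26, 0.779, 2.75 and 0.268 CPM in 27HC tumours. With number 2 it had 1.28, 2.14, 1.33 and 2.13 CPM in DMSO and 6.24, 9.78, 0.936, 4.97 and 1.27 CPM in 27HC tumours. The groups overlapped within both numbers, and 3 of 5 27HC tumours with number 2 lay above every DMSO tumour with that number. The log2 fold change was -0.96 (SE 0.61) with number 1 and 1.43 (SE 0.66) with number 2, and the difference was 2.39 (SE 0.90; edgeR p = 0.0154, adjusted p = 0.911). Without 27HC 2_2 it was 1.92 (SE 0.87), and without both libraries with salivary transcripts 1.56 (SE 0.88).

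Cldn7 followed with a difference of 1.47 (SE 0.58; edgeR p = 0.0214, adjusted p = 0.911). With number 1 it had 0.467, 0.636, 0.445, 0.592 and 0.763 CPM in DMSO and 0.352, 0.601, 0.331, 0.304 and 0.326 CPM in 27HC tumours. With number 2 it had 0.554, 0.313, 0.268 and 0.450 CPM in DMSO and 0.640, 1.19, 0.321, 1.17 and 0.295 CPM in 27HC tumours. With number 1, 4 of 5 27HC tumours were below every DMSO tumour. These CPM values stand for 9.07 to 41.98 expected counts a tumour, so counting error alone is large.

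The remaining members had differences of 1.70 (SE 1.12) for Krt8, 0.37 (SE 0.45) for Krt18, 1.54 (SE 1.71) for Krt19, 2.79 (SE 1.62) for Krt5, 1.42 (SE 0.99) for Krt14, 0.89 (SE 0.85) for Krt17, 0.02 (SE 0.55) for Cdh1 and 1.53 (SE 1.07) for Epcam. Krt5 had -1.82 (SE 1.12) with number 1, where 27HC tumours had 2.15, 0, 0, 1.12 and 0.160 CPM and DMSO tumours 2.09, 5.24, 0.901, 1.72 and 2.18 CPM, and 0.97 (SE 1.16) with number 2. Epcam had -1.39 (SE 0.74) with number 1 and 0.14 (SE 0.77) with number 2, and its difference was 0.18 without DMSO 1_5. Of the 4 tumours at the Krt19 floor, 3 carried number 1 and 1 carried number 2. Between numbers 2 and 1, with treatment in the model, 0 members passed by edgeR (percent called 0), 0 had an unadjusted p under 0.05 (2.46% of all genes) and 9 of 10 log2 differences were above 0 (46.7% of all genes), from -0.31 for Krt18 to 0.66 for Krt19. Over all genes DESeq2 called 36 in that comparison and edgeR 0. All 8 skeletal muscle markers were lower with number 2, with a median log2 difference of -4.20, each at an unadjusted p under 0.05 and none past adjustment; their part in the members' values was not tested.

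**Figure D4:**
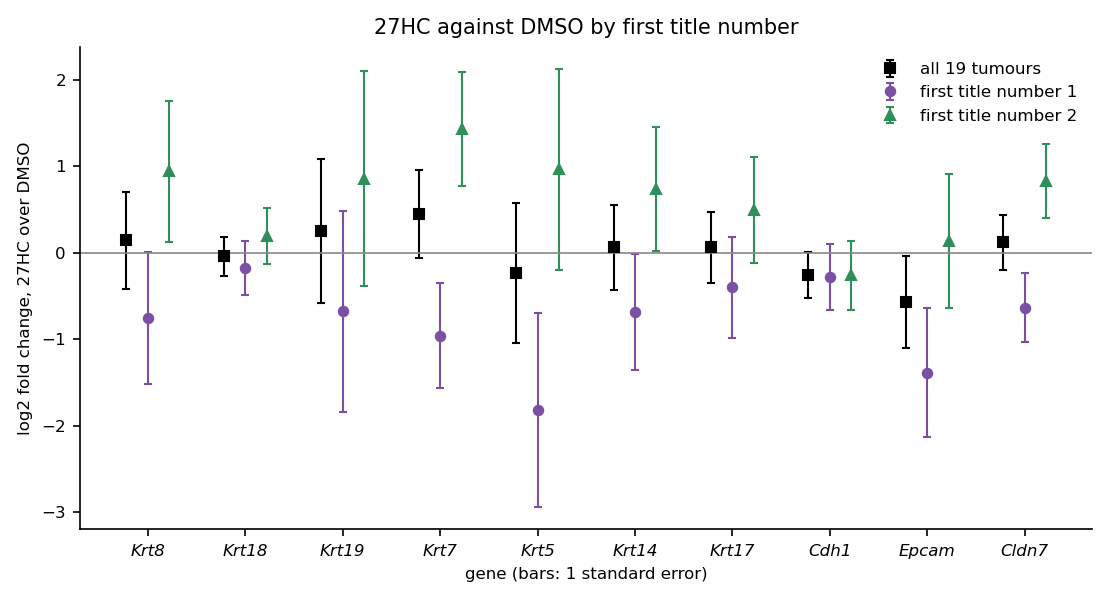
Log2 fold change of 27HC over DMSO for the 10 genes, with bars of 1 standard error, in all 19 tumours (black squares), first title number 1 (purple circles) and number 2 (green triangles). Purple points are all below 0 and green points above 0 except Cdh1, but no difference between them passed adjustment (smallest adjusted p of a member 0.911).

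How the members varied together was measured over the 15 tumours with more than 3 Krt19 counts. The other 4 lay at or near the floor for Krt19 and Krt5. This subset was set by Krt19, itself a member, and the count of pairs depends on it. Over all 19 tumours, with those 4 included, 15 of 45 pairs passed the rule used below, among them Krt8 with Krt19, Krt7 and Krt5. Over the 15 tumours, 2 of 45 pairs passed for both Pearson's r and Spearman's rho after Benjamini-Hochberg adjustment over 156290 correlations of members with all tested genes, by permutation, two-sided. Both of these were basal pairs. By Spearman's rho alone, 0 (Cldn7) to 968 (Krt18) of 15629 genes passed with a given member over the 15 tumours. Over all 19 tumours, 11 (Cldn7) to 4774 (Krt18) did. The share of all genes passing for both measures was not counted, so the pair counts do not show that members vary together more than other genes. Krt14 and Krt17 had r = 0.92 (p = 1e-05, the smallest these permutations can give; adjusted 0.00285) and rho = 0.93 (adjusted 0.0125), but they share sequence. Krt5 and Krt14, a type II and a type I chain, had r = 0.82 (p = 0.00023, adjusted 0.0183) and rho = 0.86 (p = 0.00011, adjusted 0.0272). That r was 0.78 without the 2 tumours farthest from the median of Krt5, 0.74 among 7 tumours with number 1 and 0.86 among 8 with number 2.

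Krt8 had higher correlations with Krt19 and Krt7 than with its partner Krt18, a difference that was not tested. Krt8 and Krt19 had r = 0.79 (permutation p = 0.00048, adjusted 0.0292) and rho = 0.68 (p = 0.00686, adjusted 0.179), and r was 0.67 without the 2 tumours farthest from the median of Krt8. Krt8 and Krt7 had r = 0.77 (permutation p = 0.00063, adjusted 0.0344) and rho = 0.70 (p = 0.00481, adjusted 0.154). Krt8 and Krt18 had r = -0.00102 (permutation p = 0.997, adjusted 0.999) and rho = -0.06 (p = 0.833, adjusted 0.97), with r = -0.63 among 7 tumours with number 1 and 0.42 among 8 with number 2. Cdh1 and Epcam had r = 0.85 (permutation p = 2e-05, adjusted 0.004) and rho = 0.75 (p = 0.00183, adjusted 0.0984), and r was 0.67 without the 2 tumours farthest from the median of Cdh1, 0.90 among tumours with number 1 and 0.61 with number 2. Krt18 and Cdh1 had r = -0.59 (permutation p = 0.0209, adjusted 0.23) and rho = -0.59 (p = 0.024, adjusted 0.318), which did not pass.

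By Spearman's rho of log2 CPM over all 19 tumours, the genes nearest to each member were as follows, as a description. The members themselves were left out of this ranking, as was any gene averaging below 1 log2 CPM. Some members were closer to each other than to genes listed here: Krt5 and Krt14 had a rho of 0.92. Krt8 was nearest to Fxyd3 (0.89), Sox10 (0.87) and Lsr (0.86), the last a component of tricellular tight junctions. Krt7 was nearest to Lsr (0.86), Ly6d (0.82) and Fxyd3 (0.80), so it shared 2 of the 3 with Krt8. Krt19 was nearest to Rtn4rl2 (0.88), Scnn1a (0.88), which encodes a subunit of the epithelial sodium channel, and Smarcc2 (0.87). Krt5 was nearest to Col17a1 (0.86), a hemidesmosome collagen of basal cells, Gdf10 (0.85) and Cadm3 (0.85), and Krt14 to Col17a1 (0.86), Fxyd3 (0.85) and Gdf10 (0.85). Krt17 was nearest to Htra3 (0.84), Dact2 (0.84) and Efs (0.83).

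Krt18 was nearest to Ltb4r1 (0.97), which encodes a leukotriene B4 receptor, Ucp2 (0.95), a mitochondrial carrier, and Bckdk (0.95), the kinase of branched-chain ketoacid dehydrogenase. These are few of many: with Krt18, 4774 of 15629 genes had an adjusted permutation p under 0.05 for rho. The other members had 11 (Cldn7) to 1588 (Krt17) such genes. Cdh1 was nearest to Nectin4 (0.90), an adherens junction protein, Cds1 (0.89) and Was (0.89), the latter a gene of blood cells. Epcam was nearest to Adamts15 (0.82), Fgf23 (0.78) and Lgi2 (0.76), and Cldn7 to Casz1 (0.69), Apol9b (0.65) and Sox13 (0.63).

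The other genes of the epithelial programme showed no call for 27HC against DMSO by edgeR in any list. Of 6 other keratin genes listed, 2 were tested: Krt80 with 13.1 CPM and Krt79 with 1.21 CPM. Of 11 stratified keratins in the table, 2 were tested, Krt16 with 2.33 CPM and Krt4 with 0.81 CPM, and of 15 genes of the hair follicle (keratins and trichohyalin) none was. The 17 adherens junction and desmosome genes were all tested: 6 were above 0 with a median of -0.08, and the E-cadherin partners Ctnna1 and Ctnnb1 had 414 and 355 CPM. Of 19 tight junction and polarity genes 14 were tested, 8 of them above 0 with a median of 0.07, and Tjp1 and F11r had 95.1 and 48.8 CPM. All 9 hemidesmosome and basement membrane genes were tested, 5 of them above 0 with a median of 0.02, and Plec and Lama5 had 1086 and 993 CPM.

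Among 17 epithelial regulators 13 were tested, and 10 of them were above 0 with a median of 0.15. They split as the members did. With number 1, 3 of 13 were above 0 (median -0.37), against 51.6% of all genes. With number 2, 12 of 13 were (median 0.59), against 50.1% of all genes, with 0 called each time. The junction lists above did so less: adherens junction and desmosome genes had 1 of 17 above 0 with number 1 and 9 of 17 with number 2. Tight junction genes had 5 and 7 of 14, and hemidesmosome genes 3 and 4 of 9. Mammary luminal and milk markers had 2 and 7 of 11. Spint2, a protease inhibitor of epithelia, had 16.7 CPM and the transcription factor Klf5 13.1 CPM. Ehf, a transcription factor of the ETS family, had log2 fold changes of -2.30 with number 1 and 0.98 with number 2. Of 12 mesenchymal genes and repressors of epithelial genes 10 were tested, 7 of them above 0 with a median of 0.13. Fn1 (fibronectin) had 9421 CPM, Vim (vimentin) 2139 CPM, and Snai1, a repressor of Cdh1, had 193 ± 85.6 CPM (SD, n = 9) in DMSO and 241 ± 127 CPM (SD, n = 10) in 27HC tumours. Those transcripts can come from stroma as well as from tumour cells.

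Markers of cells that could carry the members were read beside them. The 10 basal and myoepithelial markers other than keratins were all tested, 4 of them above 0 with a median of -0.01. Of the 16 mammary luminal and milk markers 11 were tested, 4 of them above 0 with a median of -0.03; Csn3, a casein, had -1.32 (SE 0.47) and Aldh1a3 had -0.59 (SE 0.23), neither of which passed by edgeR. Differentiated epidermis markers summed to 31.9 to 161 CPM in DMSO and 17.4 to 88.3 CPM in 27HC tumours, with 5 of 12 tested, and mesothelium markers to 9.14 to 45.9 and 13.2 to 62.6 CPM, with 3 of 5 tested. Leukocyte markers summed to 460 to 807 CPM in DMSO and 385 to 930 CPM in 27HC tumours, fibroblast markers to 1701 to 2899 and 1945 to 4097 CPM, endothelial markers to 109 to 175 and 116 to 174 CPM, and adipocyte markers to 115 to 301 and 50.6 to 360 CPM. Epcam and Cdh1 were highest in DMSO 1_5 (13.2 and 12.1 CPM), the tumour with the highest salivary sum. Krt7, Krt8, Krt14 and Cldn7 were highest in 27HC 2_2 (9.78, 9.54, 3.97 and 1.19 CPM), the tumour with the second highest. Krt19, Krt5 and Krt17 were highest in 27HC 2_1 (17.8, 7.02 and 1.28 CPM) and Krt18 in 27HC 1_2 (132 CPM). Those tumours are not among the libraries named for salivary transcripts. The part of gland RNA in these values was not tested.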

How the data were processed

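RNA of 19 tumours was sequenced as stranded paired-end poly(A) libraries, per the labels' protocols. The authors deposited expected counts per gene, made with unstated roles for edgeR, limma, kallisto 0.44.0 and build GRCm38, all per the submitters' processing notes. Counts were rounded to whole numbers and tested with edgeR 4.0.16 in R 4.3.3 (quasi-likelihood, TMM, default low-count filter, 11167 genes left out, adjusted p under 0.05). CPM uses TMM library sizes, log2 CPM a prior count of 2, and levels per length the principal GENCODE M21 transcript. Treatment was fitted alone, and with the first title number for subsets and their difference. Alternatives were DESeq2 1.42.0, limma 3.58.1, scaling, filters, sets of libraries and a replicate block. Symbols were matched for 26290 identifiers (506 had none). No pair of libraries in a group agreed within sampling noise (lowest chi-square per degree of freedom 39.0). Scripts were tested on simulated data. Members, lists, and the alternative without 5 low-GC libraries were chosen with earlier results of these data known. Besides the members, each list gave its 2 genes of highest mean CPM and 2 of smallest p (not all printed). Each member gave its 3 nearest genes by rho, with the members and genes averaging below 1 log2 CPM left out.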

Additional observations from a re-analysis of the deposited data

Results flagged for a closer look

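In 20 sets of values (10 genes in 2 groups), 3 tumours lay farther from the rest of their group than Dixon's 95% critical value allows, where chance flags about 1 in 20. Krt5 was 7.02 CPM in 27HC 2_1, the highest of 10, with the next at 3.03 CPM, which is 0.568 of the range against a limit of 0.466. Epcam was 13.2 CPM in DMSO 1_5, the highest of 9, with the next at 4.64 CPM (0.661 of the range against 0.493). Epcam was also 7.67 CPM in 27HC 2_2, the highest of 10, with the next at 3.34 CPM (0.608 of the range against 0.466). The pair of Epcam tumours are the libraries with salivary gland transcripts.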

How the results depend on the processing

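No alternative called any of the 10 genes in any of the 5 comparisons, leaving out each tumour in turn included (0 to 0 members, and 0 to 0 of all genes). Over all genes DESeq2 called 2 for 27HC against DMSO, 1 with first title number 1, 1 with number 2 and 36 between numbers, and sample quality weights called 1 with number 2, where edgeR called 0. The signs were less stable: 75 of 1118 fold changes under an alternative had the other sign, 34 of them when 1 tumour was left out. In all tumours the log2 fold changes with limma-voom were -0.65 for Krt8, -2.40 for Krt19, -0.14 for Krt7, -0.57 for Krt14, -0.43 for Krt17 and -0.048 for Cldn7, and as differences of mean log2 CPM -0.54, -1.74, -0.095, -0.42, -0.26 and -0.0089. With the replicate block (full title number) they were -0.45 for Krt8, -1.33 for Krt19, -0.47 for Krt14 and -0.27 for Krt17, with 0 members and 0 genes called; the numbers did not pair the tumours (5 of 9 correlations of deviations over 0.1, from -0.426 to 0.779, and 1 of 9 best with its own number). Krt14 was -0.024 with the first title number as covariate. Quality weights gave -0.18 for Krt19 and 0.34 for Epcam. Without the 5 low-GC libraries, among them 27HC 1_3, 1_5 and 2_3 of the Krt19 floor, Krt18 was 0.022, Krt5 0.42 and Epcam 0.54. Without DMSO 1_5 and 27HC 2_2, chosen after seeing the data, Krt8 was -0.021, Krt14 -0.18, Krt17 -0.15 and Cldn7 -0.016. With number 1, Krt8 was 0.088, Krt17 0.012 and Epcam 0.041 without low-GC libraries, Epcam 0.25 with quality weights and Cdh1 0.037 without DMSO 1_5 and 27HC 2_2. With number 2, limma-voom gave -0.89 for Krt19, -0.23 for Krt5 and -0.10 for Epcam, and Epcam was -0.58 without those libraries. The difference between numbers for Cdh1 was -0.00372 with DESeq2, -0.018 with limma-voom, -0.00374 with RLE scaling, -0.00374 with the filter on means and -0.51 without DMSO 1_5 and 27HC 2_2, where Epcam was -0.45. Leaving out 1 tumour gave in all tumours -0.13 to 0.26 for Krt8, -0.14 to 0.037 for Krt18, -0.024 to 0.40 for Krt19, -0.88 to 0.12 for Krt5, -0.10 to 0.19 for Krt14, -0.087 to 0.15 for Krt17 and -0.085 to 0.19 for Cldn7, with number 1 -0.64 to 0.036 for Cdh1, with number 2 -0.068 to 0.49 for Krt18 and -0.48 to 0.40 for Epcam, and for the difference -0.37 to 0.31 for Cdh1. The luminal minus basal level as log2 of summed CPM per length had means of 4.86 in DMSO and 5.52 in 27HC. Its medians had the other order, 5.14 in DMSO and 5.05 in 27HC. These values are above those from mean log2 CPM because the sum is mostly Krt18. Elsewhere the cause was not tested. Depth limits Krt17 and Cldn7, with at most 43.7 and 41.98 expected counts a tumour.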
